A study of Mus musculus with 8 samples.

Results

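The Ly49 receptors are lectin-like proteins of the cell surface, encoded by the Klra genes of the mouse. Klra1, Klra3, Klra5, Klra6, Klra7, Klra8 and Klra9 were taken by name from the expression matrices, so the account covers 7 of the 11 Klra genes among 31053 genes. CD8 T cells had been sorted from spleen and liver of C57BL/6 mice of 2 genotypes, wild type (WT) and Eomes TG (EomesTG), the latter homozygous for a transgene through which T cells express Eomes, a T-box transcription factor. The series asked how Eomes acts on transcription and on the expansion of clones. Suspensions from 3 mice per strain were pooled before the sort, and each genotype and organ gave 1 droplet library of RNA and 1 of T cell receptors, so both organs of a genotype stem from the same 3 mice. Age, sex and the promoter of the transgene are not given in the sources used here. Each group was thus 1 library, the spread between mice could not be measured, no test was made, and every 95% interval covers counting error only.

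Ly49 receptors are best known from natural killer (NK) cells, where most of them bind MHC class I proteins and carry an inhibitory signal, so that a cell that sees its own class I is held back. Each NK cell expresses some of the genes and not others, a pattern called variegated expression. A subset of memory-like CD8 T cells, at times described as regulatory, also carries inhibitory Ly49 receptors. Klra1 (Ly49A), Klra3 (Ly49C), Klra5 (Ly49E), Klra6 (Ly49F), Klra7 (Ly49G) and Klra9 (Ly49I) encode inhibitory receptors. Klra8 (Ly49H) encodes an activating receptor that binds a protein of mouse cytomegalovirus and signals through the adaptor DAP12, the product of Tyrobp.

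All 7 genes lie in a row on the reverse strand of chromosome 6 and are annotated as protein coding (GENCODE M21, GRCm38). In the order of their coordinates they are Klra5 (ENSMUSG00000030173, 129898996 to 129917650), Klra6 (ENSMUSG00000061769, 130013033 to 130026954), Klra8 (ENSMUSG00000089727, 130115226 to 130129898), Klra9 (ENSMUSG00000033024, 130178675 to 130193112), Klra7 (ENSMUSG00000067599, 130218605 to 130233322), Klra3 (ENSMUSG00000067591, 130323289 to 130337574) and Klra1 (ENSMUSG00000079853, 130363917 to 130386874). Klra3 and Klra9, the pair that was higher in EomesTG liver with Klra8, are close copies. Their transcripts were identical at 1191 of 1238 aligned bases (96.2%). The 250 bases before their RefSeq start sites (GRCm38.p6, reverse strand, chr6:130337627-130337876 and chr6:130193113-130193362) were identical at 224 of 231 aligned bases (97.0%), with 7 mismatches and 3 gap bases. They are shown because 2 receptors of one kind, read from nearly the same sequence, were compared throughout. Capitals mark bases that differ or have no partner within the overlap, and the unpaired ends of the windows stay in lower case.
Klra3: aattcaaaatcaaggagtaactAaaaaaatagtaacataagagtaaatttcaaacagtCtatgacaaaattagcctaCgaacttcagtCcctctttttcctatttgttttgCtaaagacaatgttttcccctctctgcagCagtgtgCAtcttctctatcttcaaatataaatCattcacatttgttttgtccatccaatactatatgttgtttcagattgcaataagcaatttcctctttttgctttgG
Klra9: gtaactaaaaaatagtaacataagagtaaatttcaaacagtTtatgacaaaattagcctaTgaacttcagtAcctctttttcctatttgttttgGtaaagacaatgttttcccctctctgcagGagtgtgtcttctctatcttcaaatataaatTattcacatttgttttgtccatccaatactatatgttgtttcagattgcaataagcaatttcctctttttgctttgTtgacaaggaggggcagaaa

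The same windows are shown for Klra7 (the second of its RefSeq starts, chr6:130233323-130233572), Klra6 (chr6:130026955-130027204) and Klra1 (chr6:130386875-130387124), all on the reverse strand, since these 3 genes were lower in EomesTG T cells of both organs. Capitals mark a match to TGTGGT, the core of RUNX sites, or to TCAAAG, the core of TCF/LEF sites, on either strand.
Klra7: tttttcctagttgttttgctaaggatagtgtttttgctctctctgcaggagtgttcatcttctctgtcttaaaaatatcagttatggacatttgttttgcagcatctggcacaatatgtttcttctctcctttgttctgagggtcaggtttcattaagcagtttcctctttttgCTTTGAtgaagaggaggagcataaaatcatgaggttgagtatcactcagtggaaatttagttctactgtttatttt
Klra6: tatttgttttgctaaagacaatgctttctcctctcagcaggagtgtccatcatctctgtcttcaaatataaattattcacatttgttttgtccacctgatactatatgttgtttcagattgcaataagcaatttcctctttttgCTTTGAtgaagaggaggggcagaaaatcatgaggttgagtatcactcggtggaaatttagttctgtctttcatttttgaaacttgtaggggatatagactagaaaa
Klra1: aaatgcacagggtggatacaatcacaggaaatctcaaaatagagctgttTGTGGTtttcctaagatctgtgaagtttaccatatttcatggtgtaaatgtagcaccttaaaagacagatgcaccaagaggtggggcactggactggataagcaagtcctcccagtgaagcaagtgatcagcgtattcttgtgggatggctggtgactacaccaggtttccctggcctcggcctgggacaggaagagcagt

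Matches to 5 motifs were counted on both strands of the 9 windows of the 7 genes (Klra7 and Klra8 have 2 starts each) and of the 32851 windows in the RefSeq promoter table. The T-box core GTGTGA was in 0 of the 9 windows and in 12.3% of all windows, and the longer GGTGTGA, which contains it, was in 0 of 9 and in 3.33%. TCAAAG was in 3 of 9, those of Klra6 and of both Klra7 starts, against 13.8% of all. TGTGGT was in 1 of 9, that of Klra1, against 14% of all. The run TTTTGCTAA, picked after the windows had been read, was in 4 of 9 (Klra3, Klra5, Klra6 and the second Klra7 start) and in 0.231% of all. These are matches of letters, and an absent match says only that the letters are not in the window.

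Because the genes resemble one another, each transcript was cut into 90-base windows and set against the other Klra transcripts. Within the first 500 bases, the end that 5′ chemistry reads, every window was unique to its gene in 6 of the members. In Klra8 61.6% were unique and the others matched the pseudogene Klra14-ps, which has no row in the matrices, so Klra8 values are uncertain. Over whole transcripts the unique share ran from 83.9% in Klra8 to 100%, with Klra3 at 97.0% and Klra9 at 93.2%.

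T cells left for the account numbered 5333 (WT spleen), 5726 (EomesTG spleen), 3129 (WT liver) and then 4517 (EomesTG liver), the order of all lists of 4 values below. They held 28754966, 28282240, 18952863 and 20525760 unique molecular identifiers (UMIs, counts of single RNA molecules), with medians of 5025, 4751.5, 5461 and 3918 per cell. A level is the UMIs of a gene over all T cells of a library per 1000000 UMIs (CPM), so it does not tell the number of expressing cells from the RNA in each. Between pairs of libraries 23 to 57 cell barcodes were shared, at most 1.07% of the smaller library, and 0 of them with the same clone. Eomes itself was at 86.9, 134, 84.9 and 182 CPM, reads of transgene and endogenous gene together.

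The inhibitory receptor gene Klra7 was highest in WT liver, at 28.3 (95% interval 26.4 to 30.3), 9.02 (7.94 to 10.2), 125 (120.4 to 131) and 24.4 (22.3 to 26.6) CPM. Klra6 was at 12.9 (11.7 to 14.3), 4.56 (3.81 to 5.42), 27.1 (24.8 to 29.6) and 10.6 (9.26 to 12.1) CPM. Klra1, whose receptor is known for binding H2-D proteins, was at 9.35 (8.27 to 10.5), 4.28 (3.55 to 5.11), 19.997 (18.0 to 22.1) and 6.24 (5.20 to 7.41) CPM. Each of these 3 genes had its highest level in WT liver and its lowest in EomesTG spleen. The 4 intervals of Klra1 did not overlap, while for Klra6 and Klra7 those of WT spleen and EomesTG liver did.

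Klra3 and Klra9, whose receptors are known for binding H2-K of C57BL/6 mice, had another order. Klra3 was at 12.2 (10.9 to 13.5), 18.1 (16.6 to 19.7), 17.6 (15.8 to 19.6) and 39.1 (36.5 to 41.9) CPM, highest in EomesTG liver, with overlapping intervals in EomesTG spleen and WT liver. Klra9 was at 2.50 (1.96 to 3.15), 9.12 (8.04 to 10.3), 15.1 (13.4 to 17.0) and 28.2 (25.9 to 30.6) CPM, 4 levels with no overlap. Klra5 was low in spleen and higher in liver, at 0.730 (0.452 to 1.12), 0.0354 (a single UMI), 11.3 (9.88 to 12.97) and 3.31 (2.57 to 4.20) CPM. The activating Klra8 was low everywhere and higher in both EomesTG libraries, at 1.08 (0.732 to 1.53), 6.12 (5.24 to 7.10), 1.42 (0.939 to 2.07) and 4.43 (3.57 to 5.44) CPM. Summed over the 7 genes the level was 67.1, 51.2, 218 and 116 CPM.

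**Figure D1:**
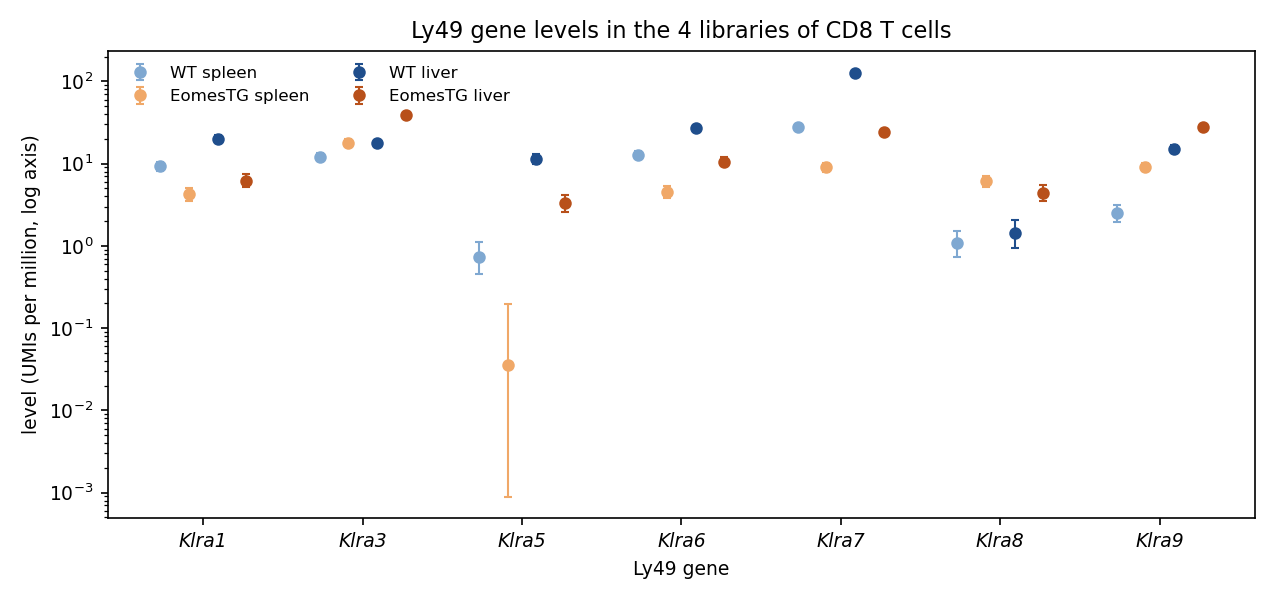
Level of each Ly49 gene (CPM, log axis) in the 4 libraries, with 95% Poisson intervals as bars. Klra1, Klra6 and Klra7 are highest in WT liver, Klra3 and Klra9 in EomesTG liver, and Klra8 is higher in the EomesTG libraries of both organs.

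The composition of the Ly49 RNA differed accordingly. Klra7 supplied 42.2% of the UMIs of the 7 genes in WT spleen and 57.5% in WT liver, but 17.6% and 21.0% in the EomesTG libraries. Klra3 and Klra9 together with Klra8 took the larger part in EomesTG: Klra3 supplied 35.3% in spleen and 33.6% in liver, and Klra9 17.8% and 24.2%. In WT, Klra3 supplied 18.1% in spleen and 8.08% in liver, and Klra9 3.73% and 6.95%.

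The first comparison asked how Ly49 genes differed between EomesTG and WT T cells of an organ. A gene was counted as higher or lower at 1.5-fold or more with its interval on that side of equality and at least 50 UMIs over both libraries. In spleen 2 of the 6 genes with enough UMIs were higher (Klra8, Klra9), where 2.68% of 10774 genes were, and 3 were lower (Klra1, Klra6, Klra7), where 4.93% were. The log2 ratio of EomesTG over WT was 2.50 (1.95 to 3.11) for Klra8 and 1.87 (1.48 to 2.26) for Klra9, the latter a 3.64-fold difference. It was −1.65 (−1.86 to −1.45) for Klra7, −1.50 (−1.80 to −1.21) for Klra6 and −1.13 (−1.45 to −0.81) for Klra1. Klra3 stood just under the threshold, at 1.49-fold and 0.57 (0.37 to 0.77). Klra5, with 1 UMI against 21, had too few to count, at −4.37 (−9.74 to −1.73). The median ratio of the 6 was −0.28, against −0.007 over all genes measured.

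In liver all 7 genes had enough UMIs, and 3 were higher (Klra3, Klra8, Klra9), where 13.7% of 10802 genes were, and 4 lower (Klra1, Klra5, Klra6, Klra7), where 6.73% were. Klra7 was 5.14-fold lower, with a log2 ratio of −2.36 (−2.50 to −2.22), and Klra5, Klra1 and Klra6 had −1.78, −1.68 and −1.35. Klra3 was 2.22-fold higher, at 1.15 (0.96 to 1.34), Klra9 was at 0.89 (0.69 to 1.10) and Klra8 at 1.64 (1.005 to 2.31). The median of the 7 was −1.35, against 0.12 over all genes measured. Because a few clones made up much of the EomesTG liver, the ratios were also taken with each clone counted once: Klra1 was then at −0.35 and no longer counted as lower, while Klra7 stood at −1.77 and Klra3 at 0.65.

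**Figure D2:**
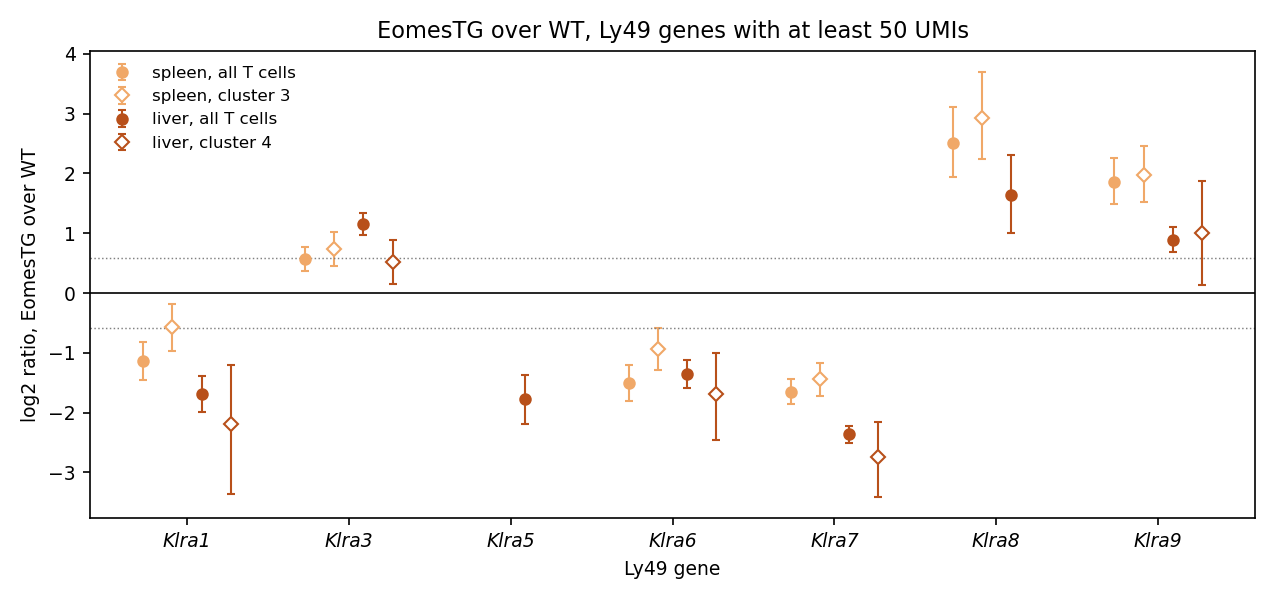
Log2 ratio of EomesTG over WT for each Ly49 gene in spleen and liver, over all T cells and within single clusters, with 95% intervals; the clusters shown were picked after seeing the data. Klra7 lies below zero and Klra9 above zero in both organs over all T cells, with log2 ratios of −1.65 and 1.87 in spleen and −2.36 and 0.89 in liver.

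Markers of NK-like innate receptors also differed between the libraries. The summed level of 8 such markers (Fcer1g, Klrb1c, Ncr1, Klre1, Tyrobp, Klrc2, Klrk1 and Klrd1), all of them with UMIs in every library, was 293, 236, 815 and 1023 CPM. Klrd1 alone was at 215, 211, 242 and 447 CPM. In liver Klrd1 and Klre1 were higher in EomesTG than in WT, while Fcer1g, Klrb1c, Ncr1, Tyrobp and Klrc2 were lower. Klrk1, at a log2 ratio of 0.54, fell short of the threshold. Ncr1, the most specific of the 8 markers for NK cells and related innate cells, was at 0.661, 0.636, 9.23 and 2.05 CPM. Their part in the Ly49 differences was not tested. In spleen, heat shock genes also differed between the libraries, as given below for Ly49-bearing cells.

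The second comparison set liver against spleen within a genotype. In WT 5 of 7 genes were higher in liver, where 11.4% of 10744 genes were, and 0 were lower, where 3.39% were. Klra5 had the largest ratio of the 7, a log2 of 3.96 (3.31 to 4.68), followed by Klra9 at 2.60, Klra7 at 2.15, Klra1 at 1.10 and Klra6 at 1.07. Klra3 was at 0.53 and Klra8 at 0.40 (−0.40 to 1.19), and neither was counted. In EomesTG 5 of 7 were higher, where 23.6% of 10941 genes were, and 0 lower, where 9.69% were. These were Klra5 (68 UMIs against 1), Klra9 at 1.63, Klra7 at 1.44, Klra6 at 1.22 and Klra3 at 1.11. Klra1 was at 0.54 and Klra8 at −0.46.

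Much of the Ly49 RNA of WT liver was in a single cluster of cells. T cells were clustered without the Klra genes into 17 clusters, of which 1 held other cells and was left out. Cluster 12, called NK-like from its markers, was led by Ncr1, Clnk and Tyrobp. It held 380 cells of WT liver (12.1% of the T cells) and 64.0% of that library's Ly49 UMIs, at 1667 CPM summed over the 7 genes. In EomesTG liver it held 85 cells (1.88%) and 17.7% of the UMIs, at 1640 CPM. The cells carried RNA of T cells: in WT liver 95.8% had a UMI of Cd3e, 90% of Cd8a and 75% a productive TCR beta chain (TRB). Cd8b1, the CD8 beta chain gene, had a UMI in 15.3% of them and in 92.0% of the other WT liver T cells. Eomes had one in 7.11% against 30.4%.

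An alternative chosen after seeing the data left out cluster 12. In WT, 5 of the 7 genes then still had enough UMIs. Of these 5, 1 was higher in liver than in spleen, where 9.84% of 10655 genes were, instead of 5 of 7 with the cluster. The ratio of Klra1 was then −0.11, that of Klra6 0.11, of Klra7 0.52 and of Klra9 0.84. In EomesTG the ratio of Klra1 was −0.77 without the cluster. The genotype ratios in liver had the same sign without it, apart from Klra5, which had fewer than 50 UMIs left, with Klra7 at −1.22, Klra6 at −0.78, Klra1 at −1.72, Klra9 at 2.47, Klra8 at 2.35 and Klra3 at 1.22. The summed NK-like markers were then at 386 CPM in WT liver and 951 in EomesTG liver.

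**Figure D3:**
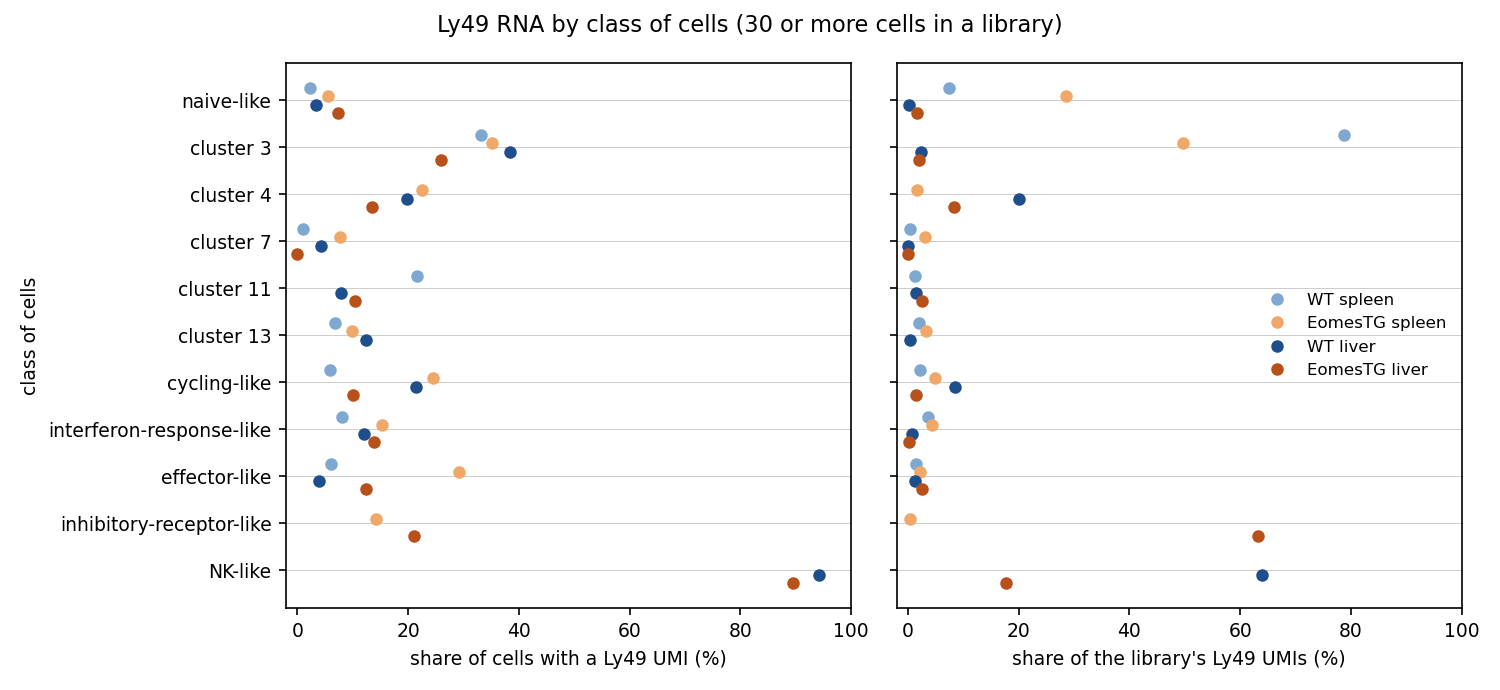
Share of each library's Ly49 UMIs (percent) found in each class of T cells. In WT liver the NK-like cluster 12 holds 64.0%, in WT spleen cluster 3 holds 78.7%, and in EomesTG liver the inhibitory-receptor-like class holds 63.3%.

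In spleen, cluster 3 held most of the Ly49 RNA. Its leading genes were Cd163l1, Gpr15 and Gzmm, and none of the marker lists named it. It took 25.4% of the T cells of WT spleen and 13.2% in EomesTG spleen, with 78.7% and 49.7% of the Ly49 UMIs, and 33.1% and 35.2% of its cells had a Ly49 UMI. Within cluster 3, where 753 EomesTG cells were set against 1353 WT cells, the log2 ratios were −1.44 (−1.72 to −1.18) for Klra7, −0.93 for Klra6 and −0.57 for Klra1, the last not counted. They were 0.73 (0.45 to 1.01) for Klra3, 2.94 for Klra8 and 1.98 for Klra9. The sum of the 7 genes was at −0.21 (−0.34 to −0.08) there. Among other spleen classes the sum was higher in EomesTG in naive-like cells (1.09), cycling-like cells (2.13, 70 UMIs against 44) and cluster 7 (3.35, 44 against 6). It was not counted in cluster 13, at 0.01 (−0.62 to 0.66), or in interferon-response-like cells, at 0.47 (−0.05 to 0.98).

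Naive-like cells, named from Ccr7, Lef1 and other markers of T cells before antigen contact, held 7.36% of the Ly49 UMIs of WT spleen and 28.6% of those of EomesTG spleen. Klra9 had 2 UMIs in the 2851 WT cells and 82 in the 4087 EomesTG cells, Klra8 had 1 and 54, and Klra3 had 55 and 194. The Klra3 ratio was 1.37 (0.93 to 1.82), while that of Klra7 was −0.30 (−0.91 to 0.31). The part of free RNA in these low counts was not tested.

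In liver outside cluster 12 the genotypes were compared within cluster 4, led by immediate early genes such as Klf4, Atf3 and Fos, in 550 EomesTG and 1232 WT cells. Klra7 was at −2.74 (−3.40 to −2.15), Klra1 at −2.19, Klra6 at −1.69 and Klra9 at 1.01 (0.14 to 1.87). Klra3 was at 0.52, short of the threshold, and the sum of the 7 genes at −0.81. Not all classes went that way. In effector-like cells, 170 of EomesTG against 561 of WT liver, the sum was at 1.95 (1.40 to 2.52), on 61 and 52 UMIs, with no single gene at 50 UMIs and Klra7 at 1.19 (−0.21 to 2.53). In cycling-like cells the sum was at −1.06 and in cluster 3 of liver, with 50 and 52 cells, also at −1.06. Within cluster 12 itself the order was another: Klra9 was at 1.25, Klra1 at 1.01 and Klra5 at 0.69, Klra7 at −0.83, and Klra6 at 0.30 was not counted. The inhibitory-receptor-like class, marked by genes such as Pdcd1 and Havcr2, held 3125 cells of EomesTG liver (69.2%) and 26 of WT liver, so it was not compared between genotypes. It held 63.3% of the Ly49 UMIs of EomesTG liver, with Klra3 at 46.4 and Klra9 at 33.7 CPM, and 21.1% of its cells had a Ly49 UMI.

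Ly49-bearing cells, those with at least 1 UMI of any of the 7 genes, numbered 580, 609, 748 and 887. They were 10.9% (10.1 to 11.7), 10.6% (9.85 to 11.5), 23.9% (22.4 to 25.4) and 19.6% (18.5 to 20.8) of the T cells. With each cell thinned to 2000 UMIs, which left out 254, 373, 194 and 586 shallower cells, the shares were 7.44, 5.96, 17.0 and 14.02%. In naive-like cells the unthinned shares were 2.35, 5.51, 3.45 and 7.30%, with median depths of 4778, 4565, 5811 and 5748 UMIs. Cluster 7 had 0.985, 7.77 and 4.35% and, in EomesTG liver, 0 of 52 cells, which allows up to 5.77%. A single UMI can also come from free RNA in a droplet. That background was not measured, since the cells of other types numbered 2, 0, 21 and 4, of which 1, in WT liver, had a Ly49 UMI. Naive T cells are generally regarded as mostly without Ly49 receptors, so shares at or below those of naive-like cells are not read as expression.

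Over all cells, bearing cells of EomesTG liver showed the fewest Ly49 genes. Cells with 2 or more of the 7 genes made up 41.2, 30.4, 50.8 and 17.5% of bearing cells, and 28.6, 19.7, 37.7 and 15.6% of them after thinning. At most 4, 4, 5 and 5 genes were seen in a cell. Outside cluster 12 the unthinned shares were 40.7% (36.7 to 44.8), 30.3% (26.6 to 34.1), 37.7% (32.9 to 42.7) and 12.1% (9.92 to 14.5). With each clone counted once they were 42.9, 30.75, 48.6 and 35.6% of bearing cells, so that EomesTG liver then stood above EomesTG spleen. The parts of clone size, cell makeup and depth in this order were not tested. Over all T cells, 4.48, 3.23, 12.1 and 3.43% had 2 or more.

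**Figure D4:**
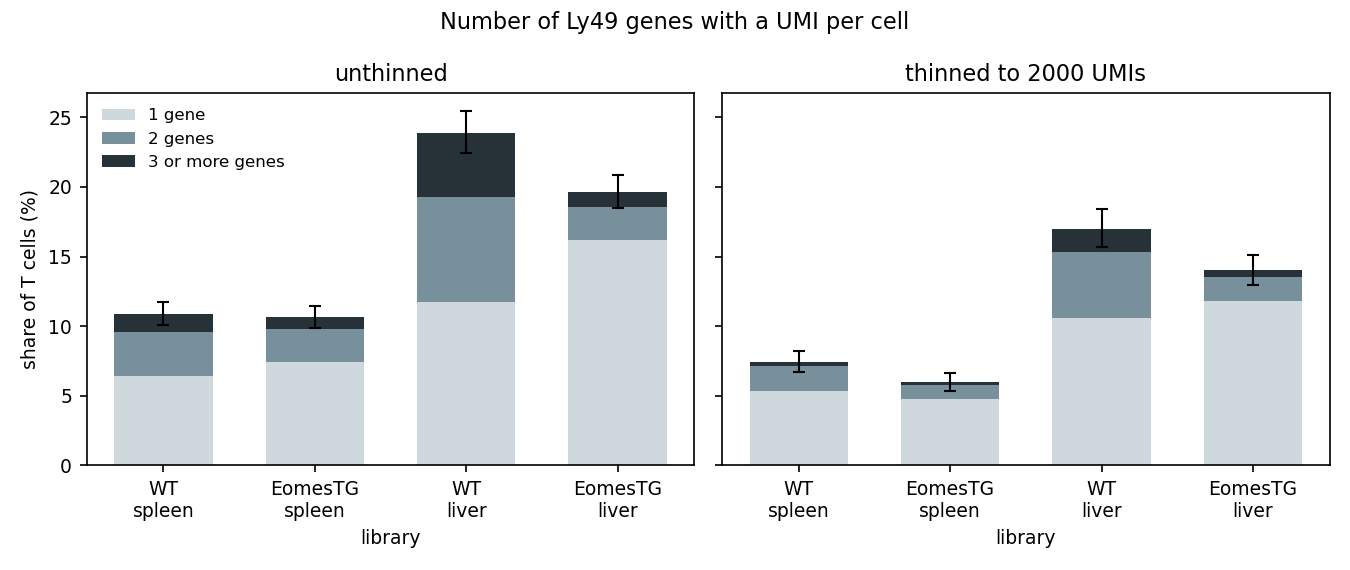
Share of T cells (percent) in each library with 1, 2, or 3 or more of the 7 Ly49 genes, with every cell and with cells thinned to 2000 UMIs. In EomesTG liver 16.2% of all T cells show a single gene and 3.43% show 2 or more; in WT liver the shares are 11.8% and 12.1%.

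Klra3 was the gene most often found alone in each of the 4 libraries: 59.5, 70.1, 59.1 and 83.6% of Klra3 cells had no UMI of the other 6 genes. For Klra9 the shares were 27.9, 52.1, 19.7 and 73.5%, for Klra7 42.4, 34.5, 37.8 and 57.4%, for Klra6 26.3, 28.1, 11.5 and 43.2%, and for Klra1 24.2, 30, 16.3 and 24.4%. In thinned WT liver cells, 89 of 146 Klra6 cells (61.0%) also had Klra7, which was in 10.8% of all cells and 63.7% of bearing cells. In thinned WT spleen 43.8% of Klra6 cells had Klra7, against 3.82% of all cells and 51.3% of bearing cells. In EomesTG spleen it was 20.5%, against 1.21% and 20.4%. Klra6 cells of these libraries thus had Klra7 more often than all cells did. Bearing cells are picked by having any of the 7 genes, Klra7 included, so their share cannot tell whether the genes go together. For Klra3 and Klra9, with near-identical sequences, 14 of 210 thinned Klra3 cells of EomesTG liver (6.67%) had Klra9. Klra9 was in 4.76% of all thinned cells there, and in 187 of the 551 thinned bearing cells.

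Bearing cells had the RNA of T cells. At least 1 of the T cell markers was found in 99.7% or more of them in each library, and a productive TRB in 92.4, 94.3, 83.0 and 82.0%. Cd8b1 had a UMI in 73.3, 88.3, 43.6 and 72.0% of bearing cells, against 95.8, 94.7, 94.9 and 78.8% of cells without a Ly49 UMI. Ncr1 had one in 1.03, 0.164, 8.16 and 1.58% of bearing cells.

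The genes that went with Ly49 most steadily were ranked, in thinned cells, by the smallest log2 ratio of bearing over other cells in any of the 4 libraries, among 6766 genes. Tyrobp, which encodes the adaptor DAP12, led with ratios of 3.64, 3.49, 4.87 and 3.84. Most bearing cells still had no Tyrobp UMI. Without thinning 5, 1.97, 45.5 and 20.1% of them had one, against 0.989, 0.743, 2.98 and 4.52% of the other cells. The next 7 were Lrrk1, Rnf130, Cd160, Eya2, Cd7, Xcl1 and Klrk1, among them the NK receptor genes Cd160 (1.53, 1.503, 2.38 and 0.72) and Klrk1, which encodes NKG2D (2.30, 1.66, 2.25 and 0.67). The 8 lowest were Cpm, Ly6a, Dapl1, Ifit3, Ramp1, Ccr7, Tdrp and Idh2. Ccr7, the chemokine receptor gene of naive T cells, was at −1.01, −0.87, −1.72 and −2.002. Without thinning 2 of the 8 highest and 4 of the 8 lowest were the same. Bearing and other cells were not matched for cluster in this ranking. Over unthinned cells, cluster 12 held 5 of 580, 1 of 609, 358 of 748 and 76 of 887 bearing cells. In WT liver 81.3% of cluster 12 cells had a Tyrobp UMI, against 3.71% of the other T cells. The part of this makeup in the ranking, and in the bearing-cell ratios of the next paragraph, was not tested.

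The listed surface genes, 11, 9, 9 and 9 of them measured, had 4, 3, 1 and 0 higher and 1, 1, 1 and 3 lower in bearing cells, with a median of −0.41 in EomesTG liver. The transcription factor genes, 13, 13, 15 and 15 measured, had 2, 1, 6 and 1 higher and 1, 0, 3 and 2 lower. From these 2 lists, the interleukin 15 receptor chain gene Il2rb was 1.39, 0.85, 1.15 and 0.16 higher in bearing cells on the log2 scale, the last not counted. Ikzf2, which encodes Helios, a factor of Ly49-bearing regulatory CD8 cells, was at 2.53, 0.08, 2.62 and 0.52, of which the WT values alone were counted. Among the 10, 9, 10 and 10 measured adaptor and signalling genes 3, 1, 5 and 2 were higher in bearing cells and 0 lower, where 3.04, 2.73, 11.8 and 3.19% of all genes were higher and 3.18, 1.94, 3.48 and 2.22% lower. Fcer1g, which encodes the other adaptor chain with an activating motif, was at 5.19 in WT spleen, 5.24 in WT liver and 3.75 in EomesTG liver. Among 9, 6, 11 and 10 other lectin-like and NK receptor genes 7, 5, 8 and 5 were higher and 1, 1, 1 and 0 lower, namely Klrg1 in both WT libraries and Cd226 in EomesTG spleen. Of the 8 class I genes, the ligand side, 0, 0, 1 and 0 were higher and none lower in any library. Eomes was not counted in any library, with ratios of 0.26, 0.51, −0.47 and −0.11.

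Over all T cells the same lists were compared between genotypes. The shares of all genes to read the counts against are those given above, 2.68% higher and 4.93% lower in spleen, and 13.7% and 6.73% in liver. In spleen 6 of 10 NK receptor genes were lower in EomesTG and 0 higher (median −1.26), among them Klrk1 at −1.81 and Cd160 at −1.19, and the adaptor genes Tyrobp and Fcer1g were at −0.84 and −2.63 while 8 of the 10 adaptor and signalling genes were not counted. In liver 5 of 12 NK receptor genes were higher and 6 lower (median −0.10). Klrc1 and Klrd1, the chains of the CD94/NKG2A receptor for class I, were at 1.93 and 0.89, Klre1 was at 1.82, and Ncr1 and Klrg1 were at −2.17 and −1.76. Of the 10 adaptor and signalling genes measured in liver 3 were higher and 2 lower. Tyrobp and Fcer1g were lower in liver too, at −1.04 and −1.26. Ptpn11, the gene of a phosphatase that inhibitory receptors recruit, was at 1.01, Fyn at 0.74 and Zap70 at 0.67. Ptpn6, from the same list, was at −0.57 and not counted.

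Class I genes themselves differed little: 0 of 8 were higher in EomesTG spleen and 1, H2-Q6 at 0.59, in EomesTG liver, with list medians of 0.32 and 0.35. H2-K1 was at 2043, 2595, 2305 and 3002 CPM. Among the 15 transcription factor genes 1 was higher (Eomes, 0.63) and 4 lower in spleen, and 5 higher and 4 lower in liver, where Tox was at 2.80 and Nfil3, needed for NK cell development, at 1.92, while Tcf7 and Lef1, whose products bind TCF/LEF sites, were at −1.28 and −1.28. Among the 11 surface genes 1 was higher and 2 lower in spleen, and 2 higher and 5 lower in liver. In liver the counts of higher class I genes (1 of 8) and higher surface genes (2 of 11) were near the 13.7% of all genes. Of the other Ly49 genes Klra4 (Ly49D, an activating receptor) was at 1.91, 0.778, 0.791 and 0.146 CPM and Klra10 at 0.661, 0.495, 0.422 and 0.682 CPM. Klra17 had 0 UMIs in every library and Klra2 a single UMI in EomesTG liver.

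Bearing cells of the genotypes were then compared with each other, although they lay in different clusters. In spleen cluster 3 held 448 of 580 bearing cells of WT and 265 of 609 of EomesTG. In liver cluster 12 held 358 of 748 in WT and 76 of 887 in EomesTG, where 658 were in the inhibitory-receptor-like class. The part of this makeup in the differences was not tested. In spleen Hspa1a, Hspa1b, Crhbp, Cd74 and Lag3 led the higher genes (3.72% of 7832 genes were higher) and Cd163l1, Fcer1g, Gpr15, Klrk1 and Klrc2 the lower ones (2.52%). The heat shock genes Hspa1a and Hspa1b were at 5.93 and 4.67, and at 6.19 and 5.18 in cells without a Ly49 UMI, and handling and genotype cannot be told apart. Lag3, an inhibitory receptor gene, was at 4.87 (2.96 to 7.95) in bearing cells, on 2 WT UMIs, and at 1.08 in the others. Fcer1g was at −3.25 in bearing cells and −1.23 in the others. The values for cells without a Ly49 UMI were added after seeing the data.

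In liver the higher genes (10.6% of 8748) were led by Lim2, C2cd4b, Pdcd1, Prss2 and Ccdc80. Pdcd1, which encodes PD-1, was at 479 CPM in EomesTG and 15.1 CPM in WT bearing cells, a log2 ratio of 4.99 (4.63 to 5.37), and at 4.15 in cells without a Ly49 UMI. C2cd4b had 153 UMIs against 0 in WT, and the lower limit of its log2 ratio was 5.38. The lower genes (5.67%) were led by Gpr15, Dapl1, Klrb1f, Atp1b1 and Nav2. Gpr15, a homing receptor gene, had 0 UMIs against 63 in WT, and the upper limit of its log2 ratio was −4.02. Klrb1f, an NK receptor gene, was at −3.17 in bearing cells and −0.69 in the others.

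The TCR libraries showed whether cells of a clone shared Ly49 genes. A clone was a set of cells of one library with the same most abundant productive TRA and TRB (V, J and nucleotide CDR3), and clones are numbered by size within a library. There were 3877, 4076, 2012 and 1024 clones, and clones of 10 or more cells numbered 1, 1, 6 and 29. Pooled mice were not separated here, so sharing within a clone and within a mouse cannot be told apart.

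The share of bearing cells was also taken by clone size. Among single-cell clones it was 12.01, 11.8, 22.4 and 15.5%, among clones of 2 to 9 cells 2.65, 9.84, 14.3 and 20.2%, and among clones of 10 or more 23.4% in WT liver and 19.97% in EomesTG liver, where such clones held 2008 cells. The single clone of that size in WT spleen had 0 bearing cells of 39, and that in EomesTG spleen 1 of 10. In WT liver 44 of the 49 bearing cells in large clones belonged to clone 2, described next, and the other 5 large clones had 5 of 164 (3.05%). The median over the 6 was 4.61%. In the large clones of EomesTG liver the share ran from 0 to 90%, with a median of 18.8%, and was 50% or more in 7 of 29.

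In WT liver 1 clone stood out. Clone 2 had 44 bearing cells of 45 (97.8%, 88.2 to 99.9), all 44 with Klra7 and 18 with Klra6, and 97.8% of its cells were in cluster 12. It supplied 23.7% of the library's Klra7 UMIs. Clone 1, the largest of WT liver with 114 cells, had 1 bearing cell (0.877%). Its receptor was also that of clone 1 of WT spleen, where 0 of 39 cells were bearing, which allows a share of up to 7.69%. In clone 3 of WT liver 0 of 14 cells were bearing (up to 21.4%), and in clones 2 and 3 of WT spleen 0 of 6 and 0 of 5. In EomesTG spleen clones 1, 2 and 3 had 1 bearing cell of 10 (Klra9), 2 of 8 (both Klra3) and 0 of 7.

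In EomesTG liver the bearing cells of several large clones had mostly one gene, Klra3 or Klra9. Clone 1 (492 cells) had 75 bearing cells, 51 of them with Klra9, and clone 2 (448 cells) had 36, of which 29 with Klra9. Clone 3 (233 cells) had 49, of which 45 with Klra3. Clone 12 had 25 bearing cells of 36, all 25 with Klra3, and clone 15 had 20 of 29, all with Klra3 and with no other member. Clones 19 and 20 had 18 of 20 and 16 of 19, with Klra3 in 17 and 15. Clone 10 had 25 of 39, with Klra9 in 16. In clones 26 and 27, with 6 and 7 bearing cells of 12 each, no gene was in more than 4 cells. Chosen after their values were seen, clone 7 had 0 bearing cells of 59, which allows up to 5.08%, and clone 6 had Klra6 in 16 of 60.

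Counted over the 19 EomesTG liver clones with 10 or more cells and at least 5 bearing cells, a cut set after seeing the data, Klra3 was the most frequent gene in 9, Klra9 in 4, Klra6 in 2 and Klra7 in 2, with 2 tied. The leading gene was in 40 to 100% of a clone's bearing cells, with a median of 77.8%. The clones led by Klra3 did not share one receptor. The CDR3 regions of their TRB chains (first base of the cysteine codon to the last of the phenylalanine codon, read from the deposited contigs) are shown in lower case for 4 of the Klra3 clones and for the Klra7 clone of WT liver.
EomesTG liver clone 12 (TRBV2): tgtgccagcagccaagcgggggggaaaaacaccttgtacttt
EomesTG liver clone 15 (TRBV13-1): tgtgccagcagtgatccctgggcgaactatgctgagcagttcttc
EomesTG liver clone 19 (TRBV17): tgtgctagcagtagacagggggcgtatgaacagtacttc
EomesTG liver clone 20 (TRBV12-2): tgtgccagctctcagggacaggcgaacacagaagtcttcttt
WT liver clone 2 (TRBV10): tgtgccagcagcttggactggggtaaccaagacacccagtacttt

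Clones 3 and 5 of EomesTG liver did share a TRB chain, base for base, with different TRA chains (TRAV13-1 and TRAV9-4). Since a clone was set by its most abundant TRA, cells of 1 clone with 2 TRA chains could be split. Whether that holds for these 2 was not tested, and they are counted as 2 clones throughout. Both were led by Klra3, in 45 of 233 and 13 of 75 cells, and both were found in spleen, with Klra3 in 2 of 8 and 2 of 6 cells. Their CDR3 regions are shown since these were the 2 clones with a common Ly49 gene in both organs.
TRB of both clones: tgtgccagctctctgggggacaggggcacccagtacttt
TRA of clone 3: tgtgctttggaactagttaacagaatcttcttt
TRA of clone 5: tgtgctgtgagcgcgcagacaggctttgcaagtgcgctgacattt

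**Figure D5:**
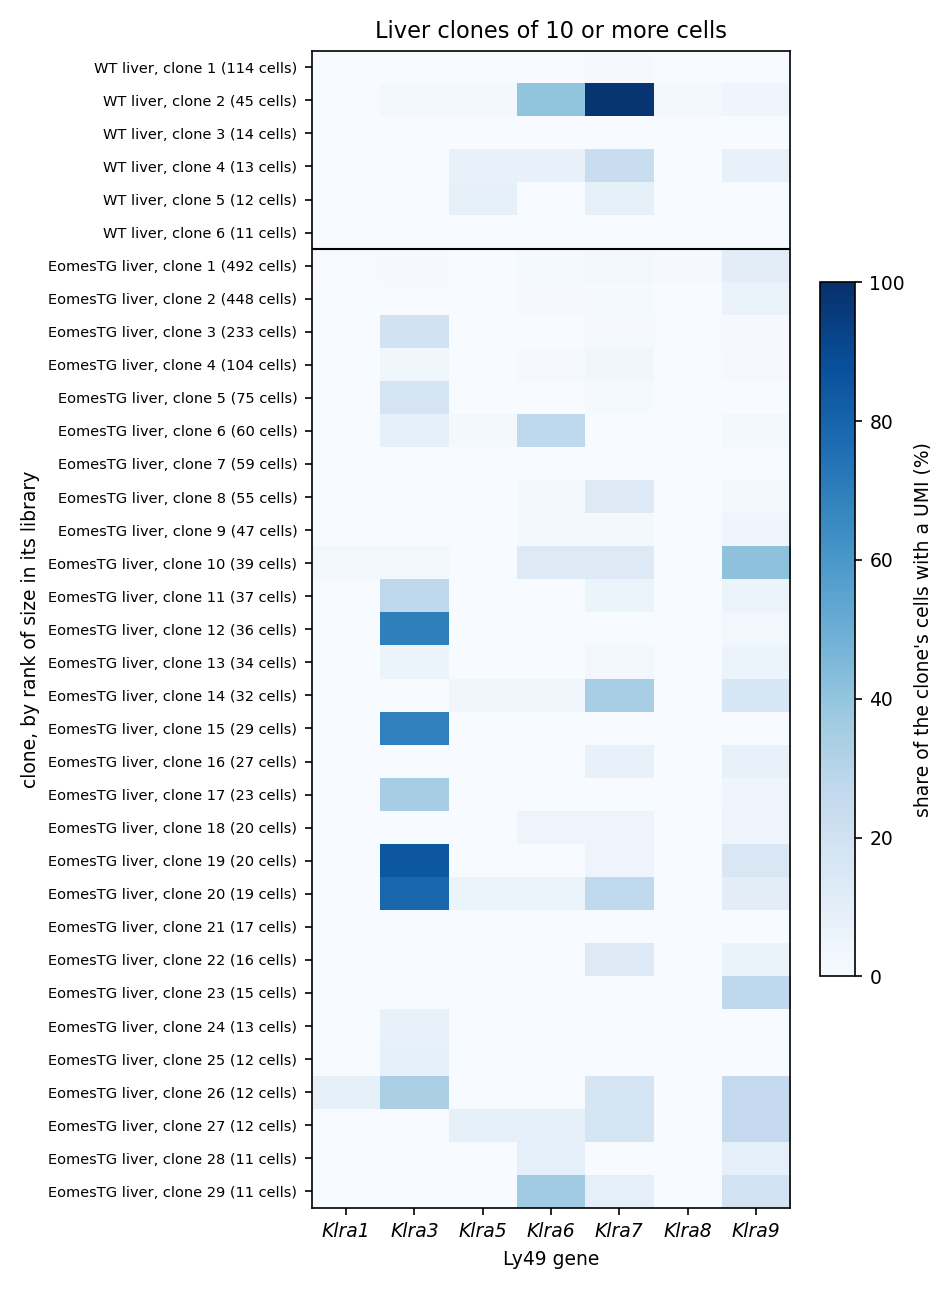
Share of cells (percent) with each Ly49 gene in all liver clones of 10 or more cells, 6 of WT and 29 of EomesTG. Clone 2 of WT liver shows Klra7 in 97.8% of its cells, and clones 12, 15, 19 and 20 of EomesTG liver show Klra3 in 69.4, 69.0, 85.0 and 78.9%.

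Over all clones of 2 or more cells and averaged over genes, clone mates of a cell with a given Ly49 gene had that gene more often than cells of other clones did. In EomesTG liver the mean mate share over 145 clone and gene pairs was 15.6%, against 6.28% in other clones and 8.52% in other clones matched for the mates' clusters. Over the 101 pairs in clones of at least 5 cells it was 9.85%, against 6.75% and 5.55%. In WT liver, over 42 pairs, it was 35.5% against 4.02% and 23.2%. Without cluster 12 it was 5.0%. The shares in other clones are not given for that setting, so whether mates were above them there is not shown. Spleen had 2 pairs in WT and 10 in EomesTG, too few for a description beyond their means of 50% and 8.43%.

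By gene, the mate share in EomesTG liver was 26.8% for Klra3 (10.1% in other clones, 7.47% matched for cluster) and 11.9% for Klra9 (8.14% and 10.8%). In WT liver Klra7 was at 55.9% (7.63% and 41.7%). Some genes did not follow the mean: in WT liver Klra9 was at 0.284% (2.56% and 9.54%), on 9 positive cells in 8 clones. In EomesTG liver Klra6, at 7.99%, was above other clones (3.37%) but below the matched 10.03%. Klra8 was at 0% in WT liver (0.318% and 0.528%) and in EomesTG spleen (1% and 1.97%). It had 2 positive cells in 2 clones in either library, too few to tell 0% from the low shares beside it. Between pairs of bearing cells, 66.0% of pairs within an EomesTG liver clone had a Ly49 gene in common, averaged over 49 clones, against 34.8% of pairs from different clones and 34.1% of such pairs in the same cluster. In WT liver it was 100% over 8 clones, against 58.1% and 66.0%.

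Clones with at least 3 cells in each organ numbered 6 in WT and 5 in EomesTG. In WT 0 of the 6 had a bearing cell in spleen and 3 had one in liver. In EomesTG all 5 had bearing cells in spleen and 2 in liver, clones 3 and 5 described above. The other 3 had 1 of 10, 1 of 5 and 2 of 3 bearing cells in spleen, and 0 of 7, 0 of 7 and 0 of 6 in liver.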

How the data were processed

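The deposited expression matrices hold UMI counts that were not normalized, and the deposited contig tables hold UMI and read counts of receptor chains. Per the submitters' processing notes Cell Ranger and mm10 were used, and per the file headers the matrices carry software 3.1.0 and format 2. Barcodes with at least 500 UMIs, 300 genes and under 10% mitochondrial UMIs were kept (80, 48, 177 and 66 left out), and 2, 0, 21 and 4 other cells were removed. Counts scaled to 10000 per cell, 2000 variable genes without Klra genes, 30 principal components, 15 neighbours and Leiden clustering at resolution 1.0 (1 run) gave 17 clusters, named by judgement from marker lists after they were seen. No doublet caller was run. Barcodes with 2 productive TRB chains (6.34, 6.16, 6.81 and 3.90%) stayed in, except in an alternative.

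CPM have exact Poisson intervals, ratios exact conditional binomial and shares exact Clopper-Pearson intervals, all at 95%. A share of 0 allows 3 counts of the total. On simulated counts with 2-fold changes, 96 to 100% of changed genes were recovered over the 4 comparisons. Members, gene lists and rules were chosen with earlier results of these data known. Named were all 7 genes, counted list genes, the 8 partner genes each way, the 5 genes each way that differed most between genotypes in bearing cells, the 3 largest clones of a library and clones of at least 10 cells with 50% or more bearing cells. Promoter sequences are from RefSeq (GRCm38.p6); all 7 genes matched by symbol. Clustering used scikit-learn 1.9.0, igraph 0.11.9 and leidenalg 0.10.2, statistics scipy 1.17.1, and tables and plots Python 3.11.15, pandas 2.3.3, numpy 2.4.6 and matplotlib 3.10.9.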

Additional observations from a re-analysis of the deposited data

How the results depend on the processing

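No paired analysis was possible because each group was 1 library, so no replicate could be left out either. Depth limits the shares. Thinned to 2000 UMIs, 7.44, 5.96, 17.0 and 14.02% of T cells (libraries in the order used above) had a Ly49 UMI and 2.13, 1.18, 6.41 and 2.19% had 2 or more genes; with at least 2 UMIs of a gene required the values were 6.32, 4.58, 17.0 and 10.2%, and 1.61, 0.768, 6.39 and 1.42%. With each clone counted once the shares were 11.9, 11.7, 21.9 and 16.6%, and those with 2 or more genes 5.11% in WT spleen, 10.7% in WT liver and 5.89% in EomesTG liver. Among cells with a TRB the share in WT liver was 22.1%. Without cluster 12 it was 14.2% there and 18.3% in EomesTG liver, with 5.35 and 2.21% at 2 or more genes; without the 3 largest clones of each library, also chosen after seeing the data, EomesTG liver had 21.7 and 4.31%.

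Without cluster 12, members higher in WT liver than spleen numbered 1 of the 5 measured, and Klra1 turned to −0.109. Members lower in EomesTG liver than spleen then numbered 1 of the 6 measured, and 1 of 7 with median-of-ratios scaling. The mate share was 100% in WT spleen after thinning, 0% in EomesTG spleen with 2 UMIs required, 5.0% in WT liver without cluster 12 and 9.85% in EomesTG liver over clones of at least 5 cells. Without thinning, 2 of the 8 highest and 4 of the 8 lowest partner genes were shared. The counts of members in the genotype comparisons stayed within 1.5 times under every alternative run. The causes were not tested.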
